A study of Drosophila melanogaster with 6 samples.

Results

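Histone H3 can carry an acetyl group on a lysine and a phosphate on the serine next to it at the same time, and H3K9acS10ph and H3K27acS28ph are the 2 forms of this phosphoacetylation mapped here. The peaks called for them were compared on the main chromosome arms of Drosophila melanogaster (2L, 2R, 3L, 3R, X and 4), by the strength and the width of the H3K9acS10ph peak. All scaffolds ending in Het and the unplaced collections U and Uextra were left out, which kept 6873 of 6918 H3K9acS10ph and 3223 of 5634 H3K27acS28ph peaks, together 10096 of the 49322 peaks in the 6 lists of the series. Chromatin came from Kc167, a line derived from female late embryos and grown without serum, and was crosslinked with formaldehyde and precipitated with 1 antibody per library. The other 4 antibodies recognised H3K4me3, H3K4me1, H3K27ac and the kinase JIL-1. The labels give no treatment, all libraries came from this 1 line, and there was 1 library per antibody with no replicate. No difference below could therefore be tested between preparations, and each interval covers counting error alone, with neighbouring peaks treated as if they were independent.

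Lysine 9 with serine 10 and lysine 27 with serine 28 sit in the same short sequence context of the H3 tail. JIL-1 is known as the kinase that phosphorylates serine 10 in interphase chromatin, and mitotic kinases phosphorylate serine 10 and serine 28 when chromosomes condense. Acetylated lysines 9 and 27 mark active promoters and enhancers, H3K4me3 marks active promoters, and H3K4me1 marks enhancers and the flanks of promoters. A phosphate beside a lysine can change which proteins bind that lysine. Whether an antibody against one doubly modified form also binds the other was not tested here.

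Each peak has a score given by the authors, which is taken to grow with the significance of the peak, as scores of the peak caller MACS do, and it was used only to rank peaks within a list. H3K9acS10ph arm peaks had a median score of 337 and a median width of 2228 bp, and H3K27acS28ph arm peaks had a median score of 141 and a median width of 1452 bp. Scores of H3K9acS10ph piled up at 3100, with 613 arm peaks (8.92%) at or above that value, against 6 arm peaks of H3K27acS28ph. Score and width rose together within each list, with a Spearman rho of 0.720 across the H3K9acS10ph peaks and 0.625 across the H3K27acS28ph peaks. H3K27acS28ph covered 5.77 Mb of the arms and H3K9acS10ph covered 19.7 Mb.

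Strong H3K9acS10ph peaks nearly always carried H3K27acS28ph, and weak ones seldom did. Over all H3K9acS10ph arm peaks, 2264 (32.9%) shared at least 1 bp with an H3K27acS28ph peak (95% Wilson interval 31.8 to 34.1). When the peaks were ranked by score and divided into 10 classes of equal size, 5.52% of the lowest class were overlapped (38 of 688, 4.05 to 7.49) and 91.3% of the highest (627 of 687, 88.9 to 93.2). The share was higher in each successive decile, but the gain was uneven. It reached only 14.6% in the fifth decile (12.1 to 17.4), whose scores ran from 212 to 337. It was 23.0% in the sixth, 41.1% in the seventh (37.5 to 44.9), 53.7% in the eighth and 73.4% in the ninth (69.9 to 76.5). Intervals of neighbouring deciles overlapped from the first to the fifth, and were apart from the sixth upward. Peaks at or above the pile-up at 3100 were overlapped in 91.5% of cases (561 of 613), and the other 74 peaks of the highest decile in 89.2%.

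**Figure D1:**
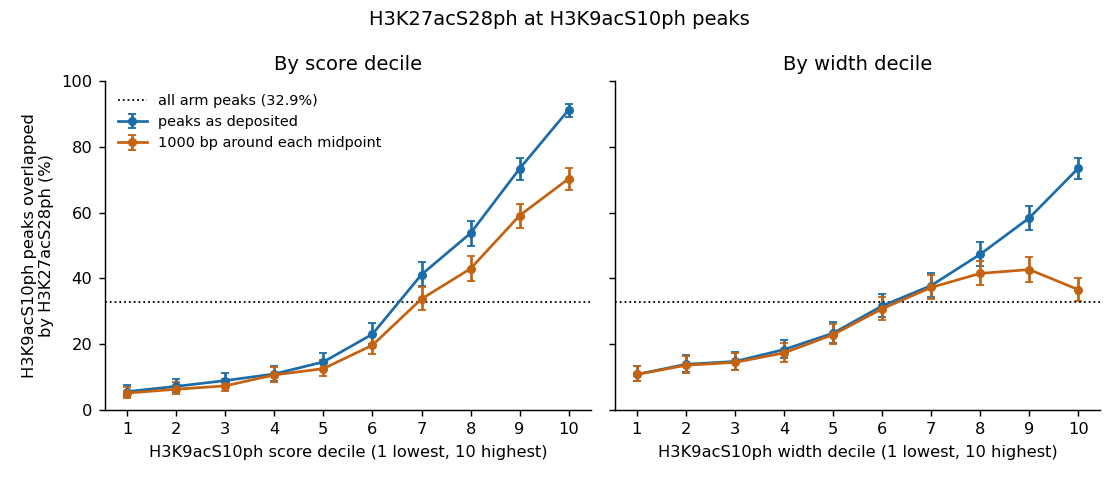
Share of H3K9acS10ph arm peaks overlapped by H3K27acS28ph (%) against the decile of H3K9acS10ph score (left) and width (right), for peaks as deposited and for 1000 bp around each midpoint; bars are 95% Wilson intervals and the dotted line is the share over all arm peaks, 32.9%. By score the share goes from 5.52% to 91.3%, and by width from 10.8% to 73.5% as deposited but to 36.5% with equal windows. Equal windows meet only where the midpoints lie less than 1000 bp apart.

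Width sorted the peaks less sharply than score. By decile of width, the share with H3K27acS28ph went from 10.8% in the narrowest (74 of 688, 8.65 to 13.3, widths up to 1280 bp) to 73.5% in the widest (505 of 687, 70.1 to 76.7, widths from 5257 bp). The fifth decile stood at 23.3% and the eighth at 47.3%. A wide peak offers more room for an overlap. With every peak replaced by 1000 bp around its midpoint, the widest decile fell to 36.5% (33.0 to 40.2), below the 42.6% of the ninth. Such windows meet only where the midpoints lie less than 1000 bp apart, and the median offset at shared peaks of the widest decile was 1245 bp. The fall therefore cannot separate room for overlap from the distance between midpoints. The highest score decile stood at 70.3% with the same windows (66.8 to 73.6), above the 59.1% of the ninth.

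At equal score decile, width made almost no difference to the overlap on average over deciles, whereas at equal width decile the score made a large one. Within score deciles, the wider 50% of peaks were overlapped in 32.5% of cases and the narrower 50% in 33.4%, a difference of -0.969 percentage points (95% interval -2.71 to 0.774). In the highest score decile the shares were 91.3% for both, although the median widths were 6280 and 3452 bp. In the second score decile the wider peaks had the lower share, 4.37% against 9.88%. In the fifth and the ninth the wider peaks had the higher share, 16.9% against 12.2% and 76.7% against 70.1%. Their scores were also higher within the decile, with medians of 276 against 263 in the fifth and 2195 against 1983 in the ninth. Within width deciles, the higher-scoring 50% were overlapped in 48.6% and the lower-scoring 50% in 17.3%, a difference of 31.4 points (29.5 to 33.2). The gap was already present among the narrowest peaks, at 14.5% and 6.98%, and was widest in the ninth width decile, at 84.3% and 32.6%. In all 10 width deciles the peaks with H3K27acS28ph had the higher median score. In 3 of the 10 score deciles they had the larger median width.

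**Figure D2:**
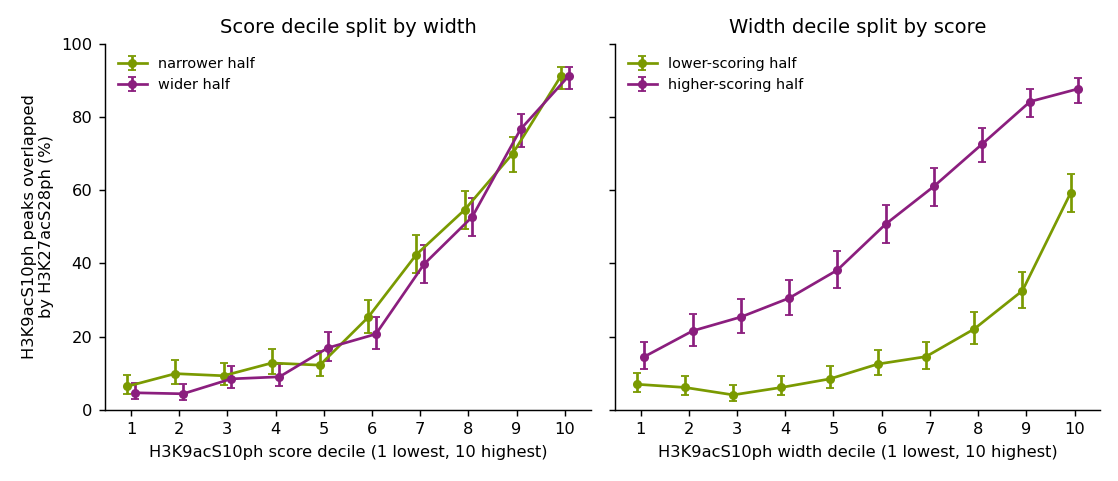
Share of H3K9acS10ph arm peaks overlapped by H3K27acS28ph (%), with each score decile split at its middle into narrower and wider peaks (left) and each width decile split into lower-scoring and higher-scoring peaks (right); bars are 95% Wilson intervals. The lines on the left mostly lie close and both end at 91.3%, but in the second decile they stand at 9.88% (narrower) and 4.37% (wider), with intervals apart. Those on the right are apart in every decile, with 14.5% against 6.98% in the narrowest.

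The narrow, strong peaks showed the same order. Only 61 peaks of the top score quintile lay in the second width quintile, and 45 of them carried H3K27acS28ph (73.8%, 61.6 to 83.2). Of the 158 peaks in the third score quintile and the widest width quintile, 40 did (25.3%, 19.2 to 32.6). Among 758 peaks lowest in both, 59 did (7.78%, 6.08 to 9.91), and among 787 highest in both, 670 did (85.1%, 82.5 to 87.5).

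The share of H3K9acS10ph peaks overlapped differed little between the large arms. The share with H3K27acS28ph was 30.8% on 2L, 31.9% on 2R, 32.5% on 3L, 33.1% on 3R and 35.9% on X, with 11 of 30 peaks on chromosome 4. The intervals of 2L (28.1 to 33.8) and X (33.4 to 38.6) overlapped slightly. From their score deciles alone, 31.6% would be read off for 2L and 32.8% for X. In the top score quintile the share ran from 77.3% on 2L to 84.8% on X, and in the lowest from 2.51% on 2R to 9.14% on 2L. The share of H3K27acS28ph peaks that overlapped H3K9acS10ph differed more, from 78.0% on 2L (365 of 468, 74.0 to 81.5) to 86.8% on 2R (553 of 637, 84.0 to 89.2) and 88.1% on 3R (689 of 782, 85.7 to 90.2), with the interval of 2L apart from those of 2R and 3R. It was 83.8% on 3L, 82.9% on X and 11 of 20 on chromosome 4.

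Read from the other list, the dependence on score was weak. Of the 3223 H3K27acS28ph arm peaks, 2715 (84.2%) overlapped H3K9acS10ph (82.9 to 85.5). By decile of H3K27acS28ph score the share was 71.5% in the lowest (66.4 to 76.2) and 78.6% in the second, and it lay between 84.8% and 88.2% in the other 8, with 87.0% in the highest. The H3K9acS10ph partner was nevertheless much stronger in the higher classes. Its median score was 947 at the weakest H3K27acS28ph peaks, which is already at percentile 69.9 of the H3K9acS10ph list, and 3100, at percentile 95.2, at the strongest. By width the share was highest in the middle of the list and fell at its upper end, with 78.0% in the narrowest decile, 92.0% in the fourth and in the seventh, 82.9% in the ninth and 57.8% in the widest (186 of 322, 52.3 to 63.0).

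The H3K27acS28ph peak usually lay within the H3K9acS10ph peak. At 85.2% of the 2264 shared H3K9acS10ph peaks the H3K27acS28ph peak with most shared bases was wholly inside (83.6 to 86.6), and the reverse held at 19 peaks (0.839%). H3K9acS10ph was the wider of the pair in 96.0% of cases, with median widths of 3308 and 1498 bp, and H3K27acS28ph covered a median of 51.5% of it (quartiles 37.6 and 69.9). Most of the shared peaks held 1 H3K27acS28ph peak (1873), 322 held 2 and 69 held 3 or more. Multiple H3K27acS28ph peaks were found at 195 of the 627 shared peaks of the highest score decile, and at 1 of 38 in the lowest. In the opposite direction, 33 H3K27acS28ph peaks spanned more than 1 H3K9acS10ph peak.

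The 2 midpoints lay a median of 426 bp apart (95% interval 397 to 470, quartiles 163 and 909, n = 2264). They were within 100 bp at 16.1% of shared peaks, within 250 bp at 34.5%, within 500 bp at 54.8% and within 1000 bp at 77.7%. The offset was larger at stronger peaks, with a median of 125 bp in the lowest score decile (63.5 to 222, n = 38), 312 bp in the fifth (241 to 433) and 623 bp in the highest (571 to 712). It followed width more closely, from 82.0 bp in the narrowest decile (63.5 to 108) to 1245 bp in the widest (1143 to 1331). As a percentage of one side of the H3K9acS10ph peak (midpoint to edge), the median offset was 27.03% overall. It lay between 26.8% and 30.1% in the fifth to the highest score decile, and was 16.8% in the lowest. By width decile it was 14.2% in the narrowest and 35.9% in the widest. H3K27acS28ph covered a smaller part of stronger peaks up to the ninth score decile, 82.0% of the width in the lowest and 46.5% in the ninth. In the highest it covered 51.1%. Its own median width was 1102 bp in the lowest decile and 1883 bp in the highest.

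**Figure D3:**
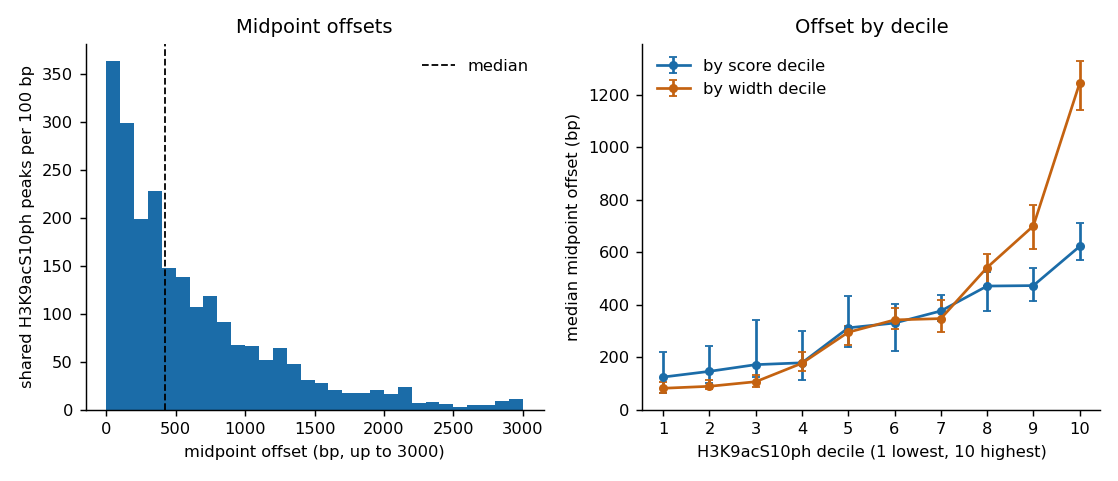
Left, number of shared H3K9acS10ph peaks per 100 bp of absolute midpoint offset to the overlapping H3K27acS28ph peak, up to 3000 bp, with the median of 426 bp dashed; right, median offset (bp) by decile of H3K9acS10ph score and width with 95% order-statistic intervals. Offsets are largest in the widest decile, at 1245 bp, and smallest in the narrowest, at 82.0 bp.

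The side to which H3K27acS28ph was displaced was compared with the position of the other marks over the same H3K9acS10ph peak. Where both offsets from the H3K9acS10ph midpoint were at least 250 bp, H3K27acS28ph lay on the same side as the H3K4me3 midpoint at 65.1% of peaks (637 of 979, 62.0 to 68.0). The same side was shared with H3K27ac at 64.9% (721 of 1111) and with JIL-1 at 62.2% (661 of 1063). With H3K4me1 it was shared at 38.7% only (489 of 1265, 36.0 to 41.4), so that H3K27acS28ph lay mostly on the side away from the H3K4me1 midpoint. The median distance from the H3K27acS28ph midpoint was 381 bp to that of H3K4me3 (n = 2118), 516 bp to JIL-1 (n = 2060), 756 bp to H3K27ac (n = 2106) and 1284 bp to H3K4me1 (n = 2107). At 47.4% of the peaks with H3K4me3, the H3K4me3 midpoint was closer to H3K27acS28ph than the H3K9acS10ph midpoint was. Both offsets are measured from the same H3K9acS10ph midpoint, so an error in it moves both to the same side.

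Score ranks of the 2 marks agreed moderately at shared peaks. The Spearman rho of the scores was 0.458 over 2264 pairs, which share the chromatin source, the cell line and the base composition of the site. It was 0.478 for the widths. Of the shared pairs, 561 had an H3K9acS10ph score at or above 3100, and without the peaks at or above that value the rho was 0.299 (n = 1703). With both widths adjusted for by rank it was 0.346. Within quintiles of H3K9acS10ph width it ran from 0.277 in the widest to 0.447 in the middle one, and within quintiles of H3K27acS28ph width from 0.139 in the narrowest to 0.397 in the fourth. It ran from 0.408 on 3L to 0.538 on X among the 5 large arms.

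The H3K27acS28ph partner was stronger mainly at the top of the H3K9acS10ph list. Its median score was 77.6 in the lowest H3K9acS10ph score decile, 97.7 in the fifth, 133 in the eighth, 176 in the ninth and 339 in the highest. The corresponding median percentiles among H3K27acS28ph arm peaks were 23.7, 34.0, 47.4, 58.3 and 79.1. With both scores cut into deciles over the shared pairs, 374 pairs (16.5%) fell in the same decile, 947 (41.8%) within 1 decile of each other, and 329 (14.5%) lay 5 or more deciles apart. Unrelated ranks would already put near 10.0% of pairs in the same decile, which is the part of the pairs that each decile holds. Neighbouring deciles add to the share within 1 decile in the same way. Of the 1000 highest-scoring peaks of each list, 502 of H3K9acS10ph (50.2%) overlapped one of H3K27acS28ph, and 548 of H3K27acS28ph (54.8%) overlapped one of H3K9acS10ph. Against the whole of the other list, the counts were 872 and 862.

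**Figure D4:**
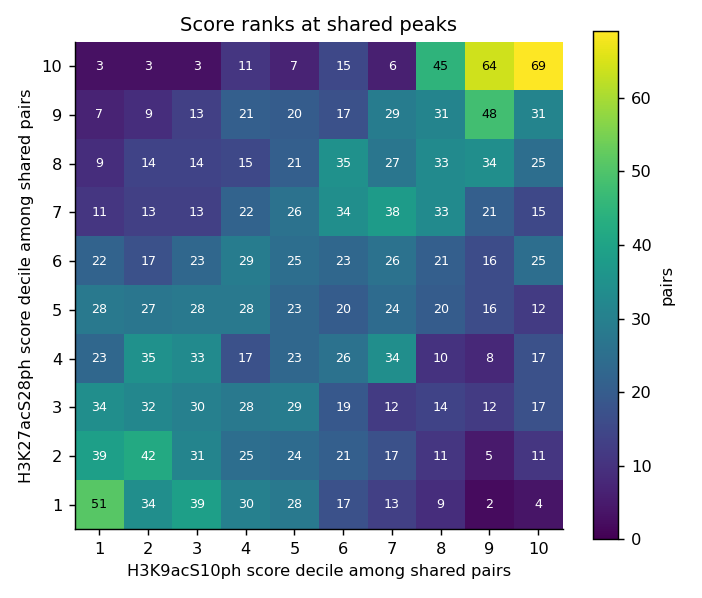
Number of shared pairs by decile of H3K9acS10ph score (horizontal) and decile of H3K27acS28ph score (vertical), each taken over the 2264 pairs. Pairs gather toward the ends of the diagonal, with 69 pairs highest in both and 51 lowest in both. Between the ends they are spread widely, with 17 pairs in the fourth decile of both. At or above an H3K9acS10ph score of 3100 stand 561 pairs, so their order in the upper deciles is mostly by width.

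H3K9acS10ph peaks with H3K27acS28ph were far more often also peaks of the other 4 marks, but most of that gap was gone on average at equal score decile. Without regard to score, H3K4me3 was present at 93.6% of the peaks with H3K27acS28ph and 64.7% of those without, H3K27ac at 93.0% and 58.6%, JIL-1 at 91.0% and 65.0%, and H3K4me1 at 93.1% and 73.9%. The shares over all 6873 H3K9acS10ph arm peaks were 74.2% for H3K4me3, 69.9% for H3K27ac, 73.5% for JIL-1 and 80.2% for H3K4me1. Set beside peaks of the same score decile, the share at peaks without H3K27acS28ph was 88.7% for H3K4me3, 89.5% for H3K27ac, 89.8% for JIL-1 and 94.3% for H3K4me1. These averages are weighted by the number of peaks with H3K27acS28ph, of which 504 lay in the ninth decile and 627 in the highest. There each mark stood at 95.1% or more on both sides, which leaves little room for a gap. The remaining difference was 4.85 points for H3K4me3 (95% interval 3.26 to 6.45), 3.52 points for H3K27ac (2.11 to 4.92) and 1.16 points for JIL-1 (-0.169 to 2.50). For H3K4me1 it was -1.27 points (-2.28 to -0.266). This H3K4me1 difference was no longer seen when the overlap had to reach 50% of the shorter peak (0.0499 points, -2.08 to 2.18). The same held with 1000 bp windows (0.470 points, -2.85 to 3.79). With those windows the H3K4me3 difference was 14.9 points, that of JIL-1 10.0 and that of H3K27ac 7.38. Matched on width decile in place of score decile, all 4 differences were positive, from 9.30 points for H3K4me1 to 21.1 for H3K27ac. Deciles leave a small difference in score, with medians of 1295 with and 1199 without H3K27acS28ph in the eighth.

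The differences for H3K4me3 and H3K27ac lay in the lower and middle deciles, and nearly every strong H3K9acS10ph peak held all marks whether or not H3K27acS28ph was called. H3K4me3, the promoter mark, was more frequent with H3K27acS28ph in all 10 score deciles. The gap was 19.0 points in the fifth decile, where 89.0% of 100 peaks with H3K27acS28ph (81.4 to 93.7) and 70.0% of 587 without (66.2 to 73.6) held H3K4me3, and 1.19 points in the highest. The intervals were apart in 3 deciles, the fourth to the sixth. H3K27ac was likewise more frequent in all 10 deciles, with 44.7% against 26.5% in the lowest (30.1 to 60.3 and 23.2 to 30.0), 80.0% against 68.5% in the fifth, and 98.9% against 97.2% in the eighth. Its intervals were apart in 1 decile, the lowest. The overlapping H3K27ac peak was wider at peaks with H3K27acS28ph in 9 deciles, with medians of 4633 and 2795 bp in the fifth.

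JIL-1, the kinase, differed in direction between score deciles. It was more frequent with H3K27acS28ph in 7 deciles and less frequent in 3, with 84.0% against 71.7% in the fifth decile, the only one whose intervals were apart, and 50.7% against 58.1% in the fourth. Where JIL-1 was present, its peak ranked at percentile 75.4 of the JIL-1 list with H3K27acS28ph and 63.1 without, but within deciles the rank was higher with H3K27acS28ph in only 2 of 10. H3K4me1 was less frequent with H3K27acS28ph in 9 of 10 deciles, with no decile below -3.01 points, and intervals overlapped in all 10. The overlapping H3K4me1 peak was also narrower with H3K27acS28ph in 9 of 10 deciles, with medians of 2740 and 3511 bp in the fifth, the opposite order to that of H3K27ac.

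**Figure D5:**
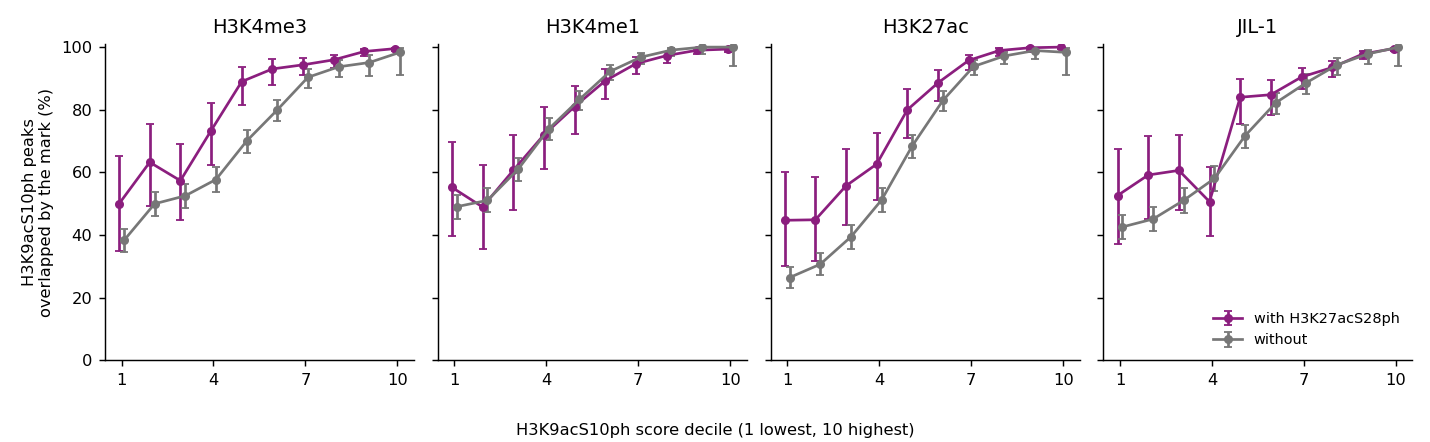
Share of H3K9acS10ph arm peaks overlapped by H3K4me3, H3K4me1, H3K27ac and JIL-1 (%) by H3K9acS10ph score decile, for peaks with and without H3K27acS28ph, with 95% Wilson intervals. H3K4me3 and H3K27ac are higher with H3K27acS28ph in all 10 deciles, as in the fifth for H3K4me3 (89.0% against 70.0%), and the lines meet near the top, where 60 peaks lack H3K27acS28ph.

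The combination of marks also went with H3K27acS28ph. All 4 other marks were present at 3517 H3K9acS10ph peaks, of which 53.0% held H3K27acS28ph (51.3 to 54.6), against 19.3% of 1205 peaks with 3 marks, 9.38% of 992 with 2, 6.69% of 807 with 1 and 5.97% of 352 with none. These classes differ in score, with medians of 1110 for 4 marks and 76.1 for none. In the third score quintile the share was 24.6% with 4 marks (21.5 to 27.9, n = 696) and 13.6% with 3 (10.5 to 17.5, n = 367), with median scores of 367 and 329, and in the fourth quintile 48.4% and 45.2%. Of the combinations that held H3K4me1, all but those with both H3K4me3 and H3K27ac had a lower share than their score deciles as a whole. For H3K4me1 alone it was 2.07% (5 of 241) where the score deciles of the same peaks averaged 8.75%, and for H3K4me1 with H3K27ac 6.84% (21 of 307) against 12.5%. For H3K4me1 with JIL-1 it was 3.31% (6 of 181) against 9.98%, and for H3K4me1 with H3K27ac and JIL-1 13.7% (72 of 525) against 19.0%. With H3K4me3 present and H3K27ac absent, it was 7.86% (11 of 140, 4.44 to 13.5) against 11.2% for H3K4me3 with H3K4me1. When JIL-1 was there too, it was 10.1% (27 of 267, 7.04 to 14.3) against 16.2%. H3K4me3 alone gave 8.05% (33 of 410, 5.79 to 11.1) against 9.63%, and H3K4me3 with JIL-1 12.3% (40 of 325, 9.17 to 16.3) against 11.4%. Peaks with none of the 4 marks stood at 5.97% (21 of 352, 3.93 to 8.95) against 7.49%. Peaks with H3K4me3, H3K4me1 and H3K27ac, without JIL-1, stood at 30.4% (n = 336) against 24.7%, and those with H3K4me3, H3K27ac and JIL-1, without H3K4me1, at 41.6% (32 of 77) against 28.3%.

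H3K27acS28ph was shared by neighbouring H3K9acS10ph peaks. Where both adjacent H3K9acS10ph peaks carried it, 52.8% of peaks did (457 of 866, 49.4 to 56.1), and where neither did, 23.6% (758 of 3209, 22.2 to 25.1). At equal score decile the difference was 17.8 points (14.8 to 20.9). For pairs of adjacent peaks, the second was more often marked when the first was, by 12.9 points at equal score decile for gaps under 1000 bp (9.11 to 16.6, 1857 pairs), 8.44 points for 1000 to 5000 bp (4.82 to 12.1) and 9.04 points for 5000 to 20000 bp (5.21 to 12.9). Beyond 20000 bp it was 3.41 points (-1.13 to 7.95). Leaving out the 32 close pairs joined by a single H3K27acS28ph peak gave 10.7 points for gaps under 1000 bp.

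The few strong peaks held by only one of the lists were of different kinds. Of the 60 H3K9acS10ph peaks in the highest score decile without H3K27acS28ph, 60 held H3K4me1, 60 JIL-1, 59 H3K4me3 and 59 H3K27ac, and 58 held all 4 (96.7%). In this they were like the peaks of that decile with H3K27acS28ph, of which 617 of 627 held all 4 (98.4%). The 5 highest-scoring were found, 1-based on scaffolds named as in release 5 of the fly genome, at chr3R:20054738-20059004, chr2R:15339723-15341131, chr3R:14078981-14082661, chr2R:10745124-10751436 and chr2L:10326180-10328337. Each overlapped all 4 other marks, as nearly all peaks of that decile did. Their scores ran from 3148 to 3207. The nearest H3K27acS28ph peak was only 91 bp away from the third of them and 728 bp from the first, and 42956 bp from the last. Over all unshared H3K9acS10ph peaks the median gap to H3K27acS28ph was 10726 bp, and 370 of 4609 had one within 1000 bp.

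H3K27acS28ph peaks without H3K9acS10ph mostly lacked the other marks as well. Of these 508 peaks, 291 (57.3%) overlapped none of the other 4 lists, against 29 of 2715 (1.07%) of the peaks with H3K9acS10ph. H3K4me3 was present at 22.8% (19.4 to 26.7) against 90.2% (89.1 to 91.3), H3K4me1 at 30.3% against 92.2%, H3K27ac at 26.8% against 92.4% and JIL-1 at 27.4% against 86.7%. At equal H3K27acS28ph score decile the differences were 66.6 points for H3K4me3 (62.6 to 70.6), 63.6 for H3K27ac, 60.4 for H3K4me1 and 58.8 for JIL-1. The 42 such peaks in the highest score decile had a median width of 8004 bp, and 25 of them overlapped none of the 4. The 5 highest-scoring lay at chrX:445174-453276, chr3L:9069768-9078051, chr3L:4327913-4336554, chr3L:9526486-9534927 and chr3L:11557771-11565825, with scores from 2184 to 2331 and widths from 8055 to 8642 bp. The fourth overlapped H3K4me1, and the other 4 overlapped none of the other lists. In the widest decile of H3K27acS28ph, 136 of 322 peaks lacked H3K9acS10ph, with a median width of 5230 bp against 3404 bp for those with it, and they were spread over the large arms, with 23 to 32 on each.

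Among shared pairs, those ranked highest in both lists by the lower of the 2 percentiles lay at chr3R:11809224-11817244, chr3L:19862152-19871019, chrX:1363071-1378471, chr2R:5469796-5483300 and chr3L:4114522-4127611, given as the extent of the H3K9acS10ph peak. All 5 overlapped the other 4 marks, as nearly all peaks of the highest score decile did. The X, 2R and second 3L pairs were tied at percentile 95.2, that of an H3K9acS10ph score of 3100, and were taken from the ties by width. On chr3R the H3K27acS28ph peak ran from 11811148 to 11815715, scored 1931 and had its midpoint 198 bp from that of the H3K9acS10ph peak, which scored 3126. On X the H3K27acS28ph peak was 7459 bp wide within an H3K9acS10ph peak of 15401 bp, and its midpoint lay 3195 bp away. At the other end, the weakest H3K9acS10ph decile held 5 peaks chosen for the strongest partner, at chr3R:1578990-1581469, chr2L:2219459-2220602, chrX:7601444-7602710, chr3R:11213426-11215013 and chr3L:3721908-3724314. The first met an H3K27acS28ph peak with a score of 1071 over 87 bp only, with midpoints 4380 bp apart. In the second, an H3K9acS10ph peak with a score of 57.8 shared 1112 bp with an H3K27acS28ph peak that scored 472, and the midpoints were 53 bp apart, over H3K4me1 and H3K27ac and without H3K4me3 or JIL-1. The fourth, on 3R, shared 1387 bp with its partner and overlapped none of the other 4 marks.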

How the data were processed

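Chromatin of Kc167 cells was precipitated with 6 antibodies and sequenced, 1 library each, and the authors deposited 1 peak list per library. The submitters' processing notes name Bowtie 0.12.5. The deposited peak names contain MACS, while its settings, the use of an input control and the build of the genome were not given in the sources. The deposited score was read as a measure of significance on the log10 scale of MACS, because the lowest scores lie near 50, and it served only for ranks within a list. The deposited starts and ends, other values than scores, are positions in bp. Read depth is unknown, and it can move the number, score and width of peaks in each list, so part of any difference between lists may come from depth.

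Samples were grouped by the antibody label. Overlap meant 1 shared bp. Deciles were taken by rank on the arms, with ties in score broken by width. The partner of a peak was the one with most shared bases. Differences at equal decile are averages over deciles weighted by the number of peaks with H3K27acS28ph (in the split by score or width, by the peaks in the upper 50%; for neighbours, by the peaks with marked neighbours). Their 95% intervals, the Wilson intervals of shares and the order-statistic intervals of medians cover counting error only. Regions were named by rule, with ties broken by width: the 5 strongest peaks of either list without the other, the 5 pairs ranked highest in both, and the 5 weakest-decile H3K9acS10ph peaks with the strongest partner. No genome of the build of the files was at hand, so no sequence or gene is given. The choice of marks, measures and rules was made with earlier results of these data known. The procedure recovered the known shares and offsets of simulated lists. Python 3.11.15, numpy 2.4.6, scipy 1.17.1, pandas 2.3.3 and matplotlib 3.10.9 were used.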

Additional observations from a re-analysis of the deposited data

Results flagged for a closer look

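Outside the arms used in the comparisons, 2411 H3K27acS28ph peaks were called on the heterochromatin and unplaced scaffolds, against 45 of H3K9acS10ph, and 29 of the 2411 (1.20%) overlapped an H3K9acS10ph peak there. They drew attention because the comparisons leave these peaks out.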

How the results depend on the processing

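No paired analysis was possible because there was 1 library per antibody. The share in the highest and lowest score decile was 76.1% and 1.31% with the upper 50% of the H3K27acS28ph list by score, and 82.7% and 3.53% with scores of at least 100 in all lists. In the highest decile it was 70.3% with 1000 bp windows and 77.5% without H3K9acS10ph peaks at or above 3100, an alternative chosen after seeing the data. The widest decile stood at 53.4% with the upper 50% of H3K27acS28ph, 64.1% with scores of at least 100, 59.7% without the peaks at or above 3100 and 36.5% with 1000 bp windows in deciles of the deposited width, and the narrowest at 2.03% with the upper 50%. The median offset was 310.0 bp with windows, which meet only where midpoints lie less than 1000 bp apart and so cap the offset. It was 489 bp with the upper 50%, 472 bp with scores of at least 100 and 376 bp without the peaks at or above 3100. The rank correlation was 0.345, 0.379 and 0.299 in the last 3 settings. Among the other marks, with windows the H3K4me3 difference was 14.9 points, H3K27ac 7.38 and JIL-1 10.0. Matched on width decile they were 18.5, 21.1 and 13.2 points, and H3K4me1 reversed to 9.30. H3K4me1 stood at 0.0499 (-2.08 to 2.18) where the overlap had to reach 50% of the shorter peak, and at 0.470 (-2.85 to 3.79) with windows. With the upper 50% of H3K27acS28ph the H3K4me3 difference was 2.26 and the H3K4me1 difference -0.194. Beyond the limit that windows set on midpoint distance, the cause of these changes was not tested, and a shorter list also holds fewer peaks. The other 39 recomputed values, among them all those over all scaffolds, lay within the interval of the reported value. The depth behind the lists limits what can be read from a peak that is missing.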
